A study of Mus musculus with 16 samples.

Results

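The comparison described here sets 4 libraries of the group MCAO+Ctrl-exos against 4 libraries of the group MCAO, chosen by their titles, out of the 16 libraries of the study, and covers all genes. Both groups were C57BL/6 mice with occlusion of the middle cerebral artery (MCAO), a model of ischemic stroke in which the artery that feeds much of the cortex is blocked. The MCAO group received no exosomes. The MCAO+Ctrl-exos group also received 150 µg of exosomes into the tail vein, first on the day of the operation and again at intervals of 3 days. Per the labels, the donors of plasma were Apoe knockout mice that ate either normal chow or, for 12 weeks, a western diet that gives them atherosclerosis. Which diet Ctrl-exos stands for is not spelled out, and no other donor is named. These donors lack Apoe, the gene of a lipid carrier. The labels mention no mice that received the carrier fluid alone. Cells of the infarcted cortex were stained for CD45 and CD11b, sorted and labelled as microglia, and their RNA was amplified and sequenced. The sources used here give neither the day of sorting nor whether each library is a separate mouse, so the p-values measure the spread between libraries, which may in part be technical. The other 8 libraries, 4 Sham and 4 MCAO+AS-exos, helped to estimate the spread of each gene and are given as levels only.

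Exosomes are small vesicles that cells release and that carry membrane lipids, proteins and short RNAs. Microglia are the resident phagocytes of the brain. After a stroke they lose their resting program, take up debris and lipid, and are joined in the lesion by monocytes, macrophages and neutrophils from the blood, which also carry CD45 and CD11b. Phagocytes in this state depend on mitochondria, whose respiratory chain passes electrons through complexes I to IV to drive ATP synthase, and on glutathione and the peroxidase GPX4 to limit the lipid peroxidation of ferroptosis, an iron-dependent form of cell death.

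Levels are FPKM, in which fragments are divided by the length of the transcript and the size of the library, and differences are log2 fold changes of FPKM + 1 (MCAO+Ctrl-exos minus MCAO) with the standard error of the limma fit. A gene is said to have risen or fallen only where its Benjamini-Hochberg adjusted p was below 0.05 over the 10846 tested genes, those with at least 1 FPKM in at least 4 of the 16 libraries. The unit was read from the values and the depth is unknown. The general leukocyte genes of the sort were present throughout: Ptprc, which encodes CD45, lay at 109 to 169 FPKM in MCAO and 91.1 to 121 FPKM in MCAO+Ctrl-exos, and Itgam, which encodes CD11b, at 121 to 188 and 78.5 to 136 FPKM. Of 25 markers of homeostatic microglia, 2 were below 1 FPKM in all 8 libraries, Sall1 and Slc2a5, of which Sall1 encodes a transcription factor that sets microglial identity. Markers of blood-derived cells were abundant, with summed levels of 16 monocyte markers of 7571 to 9250 FPKM in MCAO and 6406 to 12622 FPKM in MCAO+Ctrl-exos. The label microglia is therefore used here for the sort, not for a pure cell type. In such bulk samples fewer cells of a type and less RNA per cell cannot be told apart.

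One library of the treated group stood apart from the other 3. On the first principal component of the 8 libraries, with 21.9% of the variance, MCAO+Ctrl-exos replicate 1 scored -17.8, within the MCAO range of -36.7 to -16.4, while replicates 2 to 4 scored 34.1 to 44.9. Correlations were taken across genes, which are not independent replicates. Replicate 1 matched its own group at r = 0.909 to 0.916 and the MCAO libraries at r = 0.905 to 0.928. For pairs among replicates 2 to 4 the range was r = 0.93 to 0.937. Those 3 matched MCAO at r = 0.901 to 0.927, and pairs of MCAO libraries gave r = 0.898 to 0.922. By correlation, replicate 1 was thus no nearer to MCAO than the other treated libraries were. The deposited values of replicate 1 summed to 784006 FPKM, like the 759311 to 840856 FPKM of MCAO, against 936101 to 983648 FPKM in replicates 2 to 4. Results below are given with this library, and without it where that changes the call of a gene described. The library was singled out after its values were seen. Leaving out the treated library closest to MCAO on the first principal component and in its total favours more calls. Calls made without it are therefore not independent support.

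Few genes passed the threshold. A total of 8 of 10846 genes did so (0.0738% of those tested), 5 that rose (0.0461%) and 3 that fell (0.0277%). The 5 that rose were Uqcr11, Ccdc58, Mrps16, Pfdn5 and Fkbp2, 3 of them for mitochondrial proteins and 2 for protein folding. The 3 that fell were Rpgrip1, Gstp2 and Zfp930. At an unadjusted p below 0.05 there were 1181 genes (10.9% of those tested), 489 of them higher (4.51%) and 692 lower (6.38%). For 649 genes (5.98%) no treated value fell within the untreated range or the reverse, 216 with the treated libraries on top (1.99%) and 433 with them below (3.99%). The median log2 fold change over all tested genes was -0.14, and 38.8% of genes lay above 0. Quantile normalization brought this median to -0.03 and scaling the totals of the libraries to be equal brought it to -0.31, so list medians below are read against it. The smallest log2 fold change among the 8 genes had a size of 1.36, and the median standard error over all genes was 0.41.

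**Figure D1:**
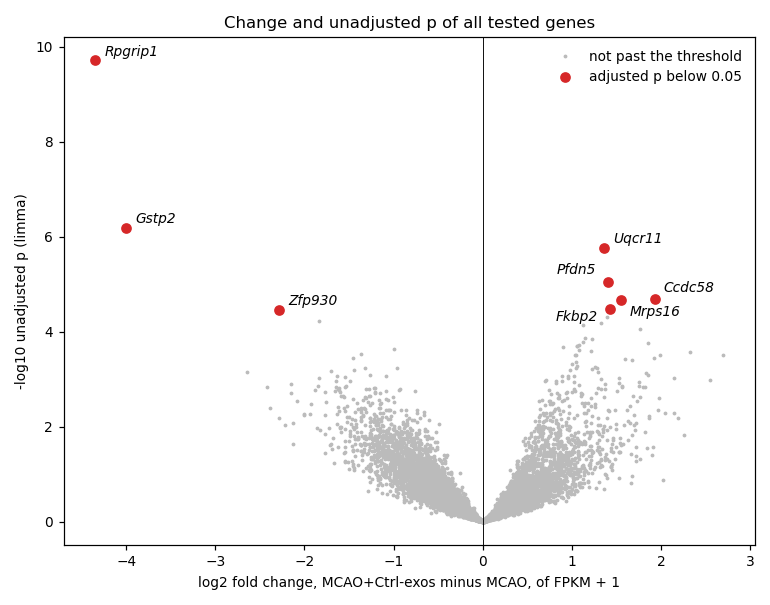
Each point is 1 of the 10846 tested genes. The horizontal axis is the log2 fold change of FPKM + 1, MCAO+Ctrl-exos minus MCAO, and the vertical axis the -log10 of the unadjusted p in limma. The 8 genes in red passed the adjusted threshold of 0.05, with Rpgrip1 and Gstp2 farthest to the left.

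Promoter sequences are shown for Uqcr11, Fkbp2, Gstp2 and Gstp1. Of the 5 genes that rose, 3 share a short motif there, and the AP-1 letters are found before both Gstp2, which fell, and Gstp1, which did not pass. The stretches are the 150 bases before the annotated start, 5′ to 3′ on the gene's strand, from RefSeq on GRCm38.p6, an older build than the one the labels name. Capitals mark matches to CCGGAAG, the core bound by ETS factors, to CCAAT, bound by NF-Y, and to TGAGTCA, bound by AP-1, searched on both strands.
Uqcr11 (chr10:80406822-80406971, minus strand): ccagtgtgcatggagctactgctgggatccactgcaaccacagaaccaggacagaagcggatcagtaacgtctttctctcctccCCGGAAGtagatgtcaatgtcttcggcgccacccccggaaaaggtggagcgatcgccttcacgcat
Fkbp2 (chr19:6980465-6980614, minus strand): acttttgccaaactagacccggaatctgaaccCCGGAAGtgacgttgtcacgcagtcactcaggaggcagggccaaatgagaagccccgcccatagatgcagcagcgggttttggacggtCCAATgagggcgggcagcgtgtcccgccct
Gstp2 (chr19:4042222-4042371, minus strand): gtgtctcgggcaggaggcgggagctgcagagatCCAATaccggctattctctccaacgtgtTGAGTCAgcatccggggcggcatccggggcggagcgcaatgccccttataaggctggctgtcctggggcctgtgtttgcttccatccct
Gstp1 (chr19:4037913-4038062, minus strand): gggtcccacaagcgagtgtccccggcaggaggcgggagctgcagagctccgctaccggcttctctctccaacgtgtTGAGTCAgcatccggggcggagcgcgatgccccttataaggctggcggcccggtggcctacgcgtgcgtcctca

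The ETS letters begin 66 bases before the start of Uqcr11 and 118 bases before that of Fkbp2, and they occur on the other strand 74 bases before 1 of the starts of Mrps16. Over windows of 250 bases before the start, 3 of the 8 windows of the 5 genes that rose held them (37.5%). Of all 32851 RefSeq windows, from 27025 genes whether tested here or not, 2269 held them (6.91%). The gene groups hold tested genes only, so the share over all windows is not a like baseline. The ETS letters were also found in 18 of 68 windows of cytosolic ribosomal protein genes (26.5%), 18 of 75 of mitochondrial ribosomal protein genes (24.0%) and 13 of 78 of respiratory chain and ATP synthase genes (16.7%). The letters GCGCATGC of NRF1, a factor of nuclear genes for mitochondria, were in 10 of those 78 windows (12.8%) against 2.26% of all windows, and in none of the 8. The AP-1 letters lie 89 bases before the start of Gstp2 and 74 bases before that of Gstp1, and were in 4.46% of all windows. CCAAT, upstream of Gstp2, Fkbp2, Mrps16 and Rpgrip1, was in 33.8% of all windows. A match describes letters and was not tested as a binding site.

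Uqcr11 encodes a small subunit of complex III of the respiratory chain. It measured 505, 563, 547 and 621 FPKM in MCAO replicates 1 to 4 and 1011, 1676, 1347 and 1823 FPKM in MCAO+Ctrl-exos replicates 1 to 4. Every treated library was above every untreated one, and the lowest of the treated values was that of replicate 1. The log2 fold change was 1.36 ± 0.20 (limma, adjusted p = 0.00625). Sham lay at 402 to 463 FPKM and MCAO+AS-exos at 511 to 800 FPKM, so the MCAO+Ctrl-exos libraries were also above all 8 of these.

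Ccdc58, which encodes a mitochondrial protein, measured 10.2, 10.3, 3.49 and 3.68 FPKM in MCAO and 17.6, 29.3, 28.8 and 32.1 FPKM in MCAO+Ctrl-exos (log2 1.93 ± 0.34, adjusted p = 0.0394). The gene rose, and the untreated libraries split into a pair near 10 FPKM and a pair below 4 FPKM. Sham lay at 24.2 to 37.1 FPKM and MCAO+AS-exos at 19.2 to 29.2 FPKM, levels that overlap those of MCAO+Ctrl-exos.

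Mrps16 encodes a protein of the small subunit of the mitochondrial ribosome, which translates respiratory chain subunits inside the organelle. Its values were 39.5, 80.4, 38.7 and 34.4 FPKM in MCAO and 96.1, 159, 117 and 184 FPKM in MCAO+Ctrl-exos (log2 1.55 ± 0.28, adjusted p = 0.0394). MCAO replicate 2 was well above the other 3 untreated libraries and still below every treated one. Sham, at 81.6 to 113 FPKM, and MCAO+AS-exos, at 95.9 to 144 FPKM, both reached into the treated range.

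Both folding genes showed the same order of the treated libraries. Pfdn5, a subunit of the prefoldin complex that hands unfolded actin and tubulin to the CCT chaperonin, measured 273, 273, 202 and 266 FPKM in MCAO and 400.03, 786, 703 and 920.05 FPKM in MCAO+Ctrl-exos (log2 1.41 ± 0.24, adjusted p = 0.0239). Sham lay at 493 to 649 FPKM, between the low replicate 1 and the other 3 treated libraries, and MCAO+AS-exos at 268 to 433 FPKM. Fkbp2, a prolyl isomerase of the endoplasmic reticulum that helps proteins fold, measured 294, 199.8, 130.3 and 301 FPKM in MCAO and 415, 656, 623 and 734 FPKM in MCAO+Ctrl-exos (log2 1.43 ± 0.27, adjusted p = 0.0465). In both genes the treated libraries were above the untreated ones without overlap, and treated replicate 1 was the lowest.

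Rpgrip1 had the largest change of all tested genes. It encodes a scaffold protein of the photoreceptor connecting cilium that binds the GTPase regulator RPGR. It measured 19.8, 22.8, 41.0 and 20.1 FPKM in MCAO and was listed at 0, 0.3, 0.64 and 0.2 FPKM in MCAO+Ctrl-exos, so it was near 0 in each treated library, replicate 1 included. The log2 fold change of FPKM + 1 was -4.35 ± 0.36 (limma, adjusted p = 2.09e-06). Sham lay at 7.03 to 18.8 FPKM and MCAO+AS-exos at 9.28 to 17.7 FPKM, so the 4 MCAO+Ctrl-exos libraries were below all 12 others. In RefSeq on GRCm38.p6 the gene overlaps its neighbour Supt16 by 921 bases. Supt16, a subunit of the histone chaperone FACT, measured 13.5, 18.4, 8.12 and 15.9 FPKM in MCAO and 31.5, 20.4, 27.6 and 20.4 FPKM in MCAO+Ctrl-exos (0.83 ± 0.32, adjusted p = 0.353). These values did not overlap and ran in the opposite direction, and the sources used here do not say whether the counting used strand, so fragments of the shared stretch cannot be told apart. Of the 12 tested genes on a list of photoreceptor cilium genes, Rpgrip1 alone passed, and the median of the list was -0.28.

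Gstp2 encodes a glutathione transferase of the pi class, enzymes that attach glutathione to reactive compounds. It measured 10.3, 14.8, 26.6 and 18.8 FPKM in MCAO and was listed at 0, 0, 0.18 and 0.27 FPKM in MCAO+Ctrl-exos (-4.00 ± 0.55, adjusted p = 0.00355). The treated libraries were near 0 without exception, while Sham lay at 0 to 9.55 FPKM and MCAO+AS-exos at 0.81 to 5.48 FPKM. Its neighbour and close copy Gstp1 was far more abundant, at 159.7, 255, 201 and 290.3 FPKM in MCAO and 286, 263, 379 and 356 FPKM in MCAO+Ctrl-exos (0.52 ± 0.35, adjusted p = 0.605). The transcripts of both genes are identical at 752 of 786 aligned bases (95.7%), so how fragments were divided between them is uncertain. Summed, the pair measured 170, 269.9, 228 and 309 FPKM in MCAO and 286, 263, 379 and 356 FPKM in MCAO+Ctrl-exos, ranges that overlap. Of the 15 tested glutathione transferases Gstp2 was the only one past the threshold, and the median of the list was 0.09.

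Zfp930, which encodes a zinc finger protein, fell from 11.7, 3.86, 6.42 and 7.85 FPKM in MCAO to 0.08, 2.16, 0.09 and 0.97 FPKM in MCAO+Ctrl-exos (-2.28 ± 0.43, adjusted p = 0.0465). The groups did not overlap, but the highest treated value was close to the lowest untreated one. Zinc finger genes form a large family with similar sequences, and fragments may be shared. Of 286 tested genes of that name, 17 were lower without overlap (5.94%, against 3.99% of all genes) and 3 higher (1.05%, against 1.99%). Zfp868 missed the limma threshold at 9.23, 20.1, 17.8 and 12.4 FPKM in MCAO and 5.1, 2.61, 4.46 and 1.77 FPKM in MCAO+Ctrl-exos (-1.84 ± 0.36, adjusted p = 0.0637). Without treated replicate 1 Zfp868 passed, at -2.01 ± 0.38 (adjusted p = 0.0183).

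**Figure D2:**
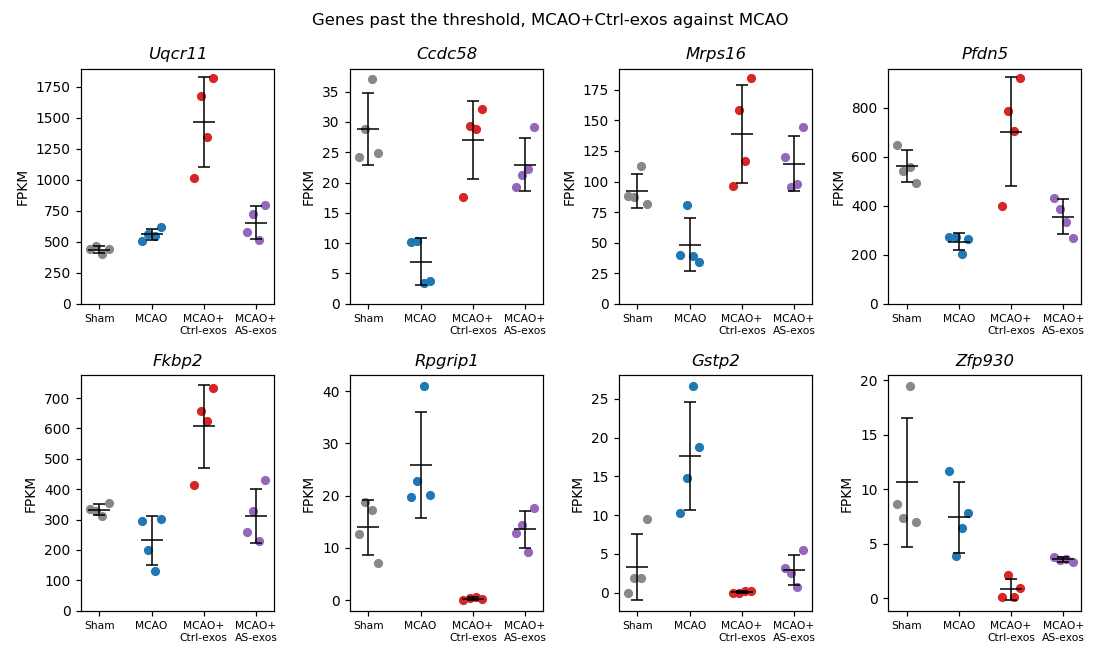
FPKM of the 8 genes past the threshold in each of the 16 libraries, by group; a point is a library, in the order of replicates 1 to 4, and the bar gives the mean ± SD of 4 libraries. The 5 genes from Uqcr11 to Fkbp2 are higher in MCAO+Ctrl-exos than in MCAO, with replicate 1 the lowest of the treated libraries, and Rpgrip1 and Gstp2 lie near 0 in MCAO+Ctrl-exos.

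Rpgrip1 and Gstp2 passed the threshold under all 18 other ways of processing that were tried, including leaving out each of the 8 libraries. Uqcr11 passed under 15 of the 18, Pfdn5 under 9, Ccdc58, Mrps16 and Zfp930 under 7 each, and Fkbp2 under 5. Direction did not change for any of the 8. Without MCAO+Ctrl-exos replicate 1 the number of genes past the threshold went from 8 to 89 (0.821% of those tested), 71 that rose (0.655%) and 18 that fell (0.166%), and all 8 were among them. Weights for the quality of each library led to 59 genes, 48 of them higher. The weight of replicate 1 was 0.541, against 0.932 to 1.28 for the other 3 treated libraries and 0.641 to 1.43 for the MCAO libraries. Leaving out other libraries gave 2 to 9 genes.

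**Figure D3:**
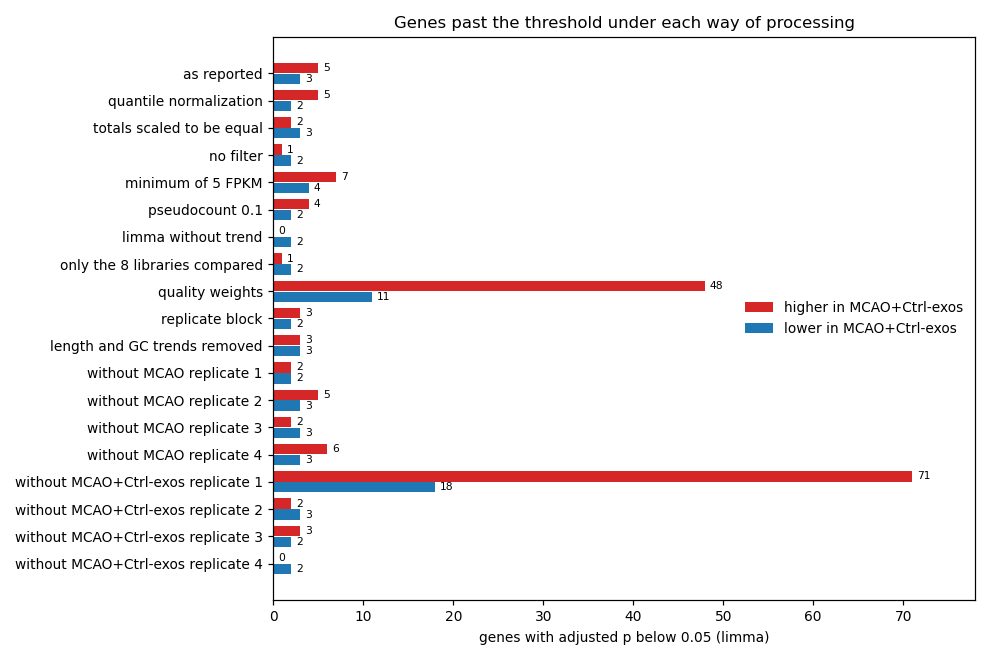
Number of genes with a limma adjusted p below 0.05 under each way of processing, higher (red) and lower (blue) in MCAO+Ctrl-exos. The count is 8 as reported (5 and 3), 59 with quality weights and 89 without MCAO+Ctrl-exos replicate 1, and 11 or fewer in the other settings.

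Subunits of complexes I, III and IV and of ATP synthase lay higher as groups, and those of complex II did not. Of 37 tested subunits of complex I, the first proton pump of the chain, 32 were above 0, against 38.8% of all genes, with a median log2 fold change of 0.56, which was 0.34 under quantile normalization. None passed the threshold in limma, 17 were higher at an unadjusted p below 0.05, and 4 were higher without overlap (10.8%, against 1.99% of all genes). Ndufb9 measured 359.9, 419, 487 and 504 FPKM in MCAO and 576, 893, 661 and 777 FPKM in MCAO+Ctrl-exos (0.71 ± 0.18, adjusted p = 0.174), while Ndufs6, at 394 to 636 and 538 to 1070.4 FPKM, overlapped (0.79 ± 0.24, adjusted p = 0.215). All 11 tested subunits of complex IV, the oxidase that reduces oxygen, were above 0 (median 0.47), as were 8 of 9 of complex III (median 0.38) and 14 of 18 of ATP synthase (median 0.31). Of the 4 subunits of complex II, succinate dehydrogenase, 2 were above 0 and the median was 0.09. Uqcr10, a small complex III subunit like Uqcr11, was at 525 to 742 FPKM in MCAO and 701 to 1233 FPKM in MCAO+Ctrl-exos, which overlapped (0.75 ± 0.22, adjusted p = 0.209). Cox6b1, of complex IV, was at 1344 to 2156 and 2087 to 3915 FPKM (0.69 ± 0.22, adjusted p = 0.26). Cox4i1, of the same complex, showed the split of the treated libraries, at 1243 FPKM in replicate 1 and 2036 to 2634 FPKM in replicates 2 to 4, around 1125 to 1368 FPKM in MCAO (0.64 ± 0.24, adjusted p = 0.329). So did Atp5j2 of ATP synthase, at 967 FPKM in treated replicate 1 and 1585 to 2010 FPKM in the other 3, against 898 to 1118 FPKM in MCAO (0.64 ± 0.23, adjusted p = 0.325).

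Single assembly and import factors of mitochondria were higher as well. Of 7 tested genes listed under complex III assembly and cytochrome c, where Ccdc58 was placed, Ccdc58 rose and the median was 0.62. Uqcc2, an assembly factor of complex III, measured 226, 218, 155 and 312 FPKM in MCAO and 345, 456, 532 and 542 FPKM in MCAO+Ctrl-exos, without overlap, and did not pass (1.06 ± 0.23, adjusted p = 0.109). Coa3, an assembly factor of complex IV, measured 52.9, 82.5, 99.1 and 85.6 FPKM in MCAO and 149.8, 251, 209 and 195 FPKM in MCAO+Ctrl-exos (1.33 ± 0.26, adjusted p = 0.0651). Fdx2, a ferredoxin that donates electrons for iron-sulfur cluster synthesis, came closest to the threshold of the genes that missed it, at 22.4, 42.5, 53.4 and 25.5 FPKM in MCAO and 91.2, 88.3, 91.1 and 93.7 FPKM in MCAO+Ctrl-exos (1.40 ± 0.27, adjusted p = 0.0579). In Fdx2 treated replicate 1 did not differ from the other 3. Fis1, a receptor of mitochondrial fission, lay at 141 to 241 FPKM in MCAO and 313 to 542 FPKM in MCAO+Ctrl-exos (1.15 ± 0.24, adjusted p = 0.101). Timm13, a chaperone of the space between the mitochondrial membranes, lay at 119 to 131 and 179 to 314 FPKM (1.05 ± 0.25, adjusted p = 0.132). Romo1, a modulator of reactive oxygen in the inner membrane, lay at 292 to 367 and 526 to 685 FPKM, without overlap (0.86 ± 0.25, adjusted p = 0.198). Without treated replicate 1, Coa3 and Fis1 (adjusted p = 0.0183 each), Uqcc2 (0.0206), Timm13 (0.0235) and Fdx2 (0.0329) passed, each higher.

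Proteins of the mitochondrial ribosome followed: 40 of 49 tested genes of the large subunit were above 0 (median 0.39) and 24 of 29 of the small subunit (median 0.28), with Mrps16 as the 1 member that rose. Mrpl43 lay at 49.3 to 64.4 FPKM in MCAO and 78.5 to 159 FPKM in MCAO+Ctrl-exos, without overlap (1.0 ± 0.24, adjusted p = 0.146). Scaling the totals brought the median of the small subunit from 0.28 to 0.08, beside -0.31 for all genes. Enzymes of the tricarboxylic acid cycle did not share the direction, with 5 of 16 above 0 and a median of -0.11. Suclg2, a subunit of succinyl-CoA ligase, was lower without overlap, at 14.5 to 20.8 FPKM in MCAO and 4.67 to 12.6 FPKM in MCAO+Ctrl-exos (-1.19 ± 0.40, adjusted p = 0.288).

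Cytosolic ribosomal proteins lay higher as groups too. Of 46 tested genes of the large subunit 44 were above 0 (median 0.40), and of 31 of the small subunit 28 (median 0.44), with none past the threshold in limma. Quantile normalization brought these medians to 0.11 and 0.13, beside -0.03 for all genes. At an unadjusted p below 0.05 there were 18 and 13, all higher. Rpl18 came closest, at 1091, 985, 837 and 1545 FPKM in MCAO and 1548, 3113, 2546 and 2506 FPKM in MCAO+Ctrl-exos (1.12 ± 0.22, adjusted p = 0.0655). The highest untreated value, of replicate 4, and the lowest treated value, of replicate 1, were nearly equal. Rps19 measured 1893, 1877, 1629 and 3353 FPKM in MCAO and 2819, 5370, 4370 and 5899 FPKM in MCAO+Ctrl-exos, which overlapped through the same 2 libraries (1.08 ± 0.24, adjusted p = 0.112). Ribosomal protein genes have many near-identical pseudogenes, among which fragments may be divided. Initiation and elongation factors of translation did not follow, with 25 of 64 above 0 and a median of -0.08.

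For the subunits of complexes I, III and IV, ATP synthase and both ribosomes treated replicate 1 lay among the untreated libraries or, for the large subunit of the mitochondrial ribosome, just below them. The list of complex III assembly and cytochrome c differed, with MCAO at -0.51 to 0.41, treated replicate 1 at 0.53 and replicates 2 to 4 at 0.83, 0.36 and 0.33. As the median over a list of each library's log2 value minus the MCAO mean, complex I subunits were at -0.04 to 0.08 in the 4 MCAO libraries, at 0.04 in MCAO+Ctrl-exos replicate 1, and at 0.60, 0.55 and 0.83 in replicates 2 to 4. Large ribosomal subunit genes were at -0.17 to 0.40 in MCAO, with replicate 4 at the top, at 0.02 in treated replicate 1, and at 0.57, 0.36 and 0.73 in replicates 2 to 4. Where replicate 1 lay among the untreated libraries, leaving it out favours larger differences. The median of complex I then went from 0.56 to 0.69, while that of the large mitochondrial ribosomal subunit stayed at 0.39. Without replicate 1, 5 of 37 complex I subunits (13.5%), 7 of 46 large (15.2%) and 4 of 31 small (12.9%) cytosolic ribosomal genes passed the threshold, all higher, against 0.821% of all genes. Rpl18 then had a log2 fold change of 1.32 ± 0.20 (adjusted p = 0.00829), Rps19 of 1.3 ± 0.22 (adjusted p = 0.0141) Ndufs6 of 1.01 ± 0.22 (adjusted p = 0.0347) and Ndufb9 of 0.81 ± 0.18 (adjusted p = 0.0443). Under the same fit none of the 11 complex IV and 18 ATP synthase subunits, the 64 translation factors or the 16 tricarboxylic acid cycle genes passed.

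**Figure D4:**
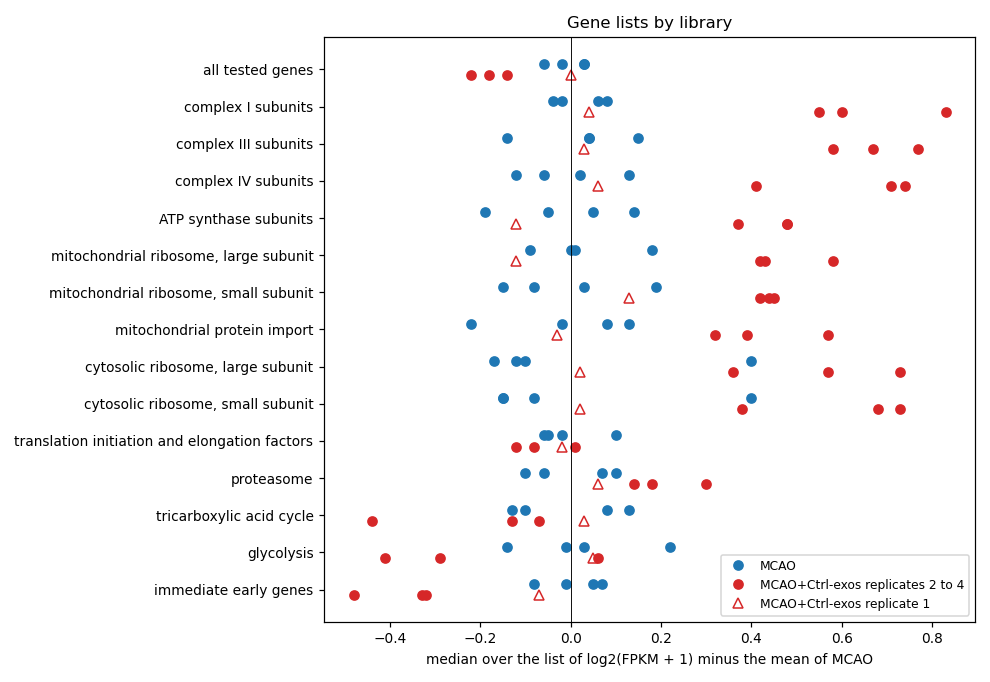
For each list and library, the median over tested members of log2(FPKM + 1) minus the mean of the 4 MCAO libraries. Blue points are the 4 MCAO libraries, red points MCAO+Ctrl-exos replicates 2 to 4 and open triangles MCAO+Ctrl-exos replicate 1. For complex I the red points lie at 0.55 to 0.83 and the triangle at 0.04, among the blue points.

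Transcript length moved with these lists. Transcripts of the complex I list had a median length of 704 bases, and those of the large and small ribosomal lists 717.5 and 678 bases, against 2064 bases for all genes. With all genes split by length into 5 equal bins, the bin of the shortest transcripts had a median difference to the MCAO mean of 0.0656 to 0.113 in MCAO+Ctrl-exos replicates 2 to 4, and the bin of the longest -0.368 to -0.253. In replicate 1 both were near 0, at 0.00595 and 0.0253. With genes split by GC content in the same way, replicate 1 went from -0.103 in the lowest bin to 0.149 in the highest. Replicates 2 and 3 went from -0.2 to -0.00688 and from -0.292 to -0.059, and replicate 4 from -0.219 to -0.247. The MCAO libraries lay at -0.0184 to 0.0126 in the lowest bin and -0.101 to 0.0903 in the highest. With trends in length and GC content removed from each library, the median of complex I was 0.36, and those of the large and small ribosomal lists 0.27 and 0.30, beside -0.12 for all genes. Of the 8 genes, 6 then passed the threshold, all but Ccdc58 and Fkbp2. The part of length in the results was otherwise not tested.

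**Figure D5:**
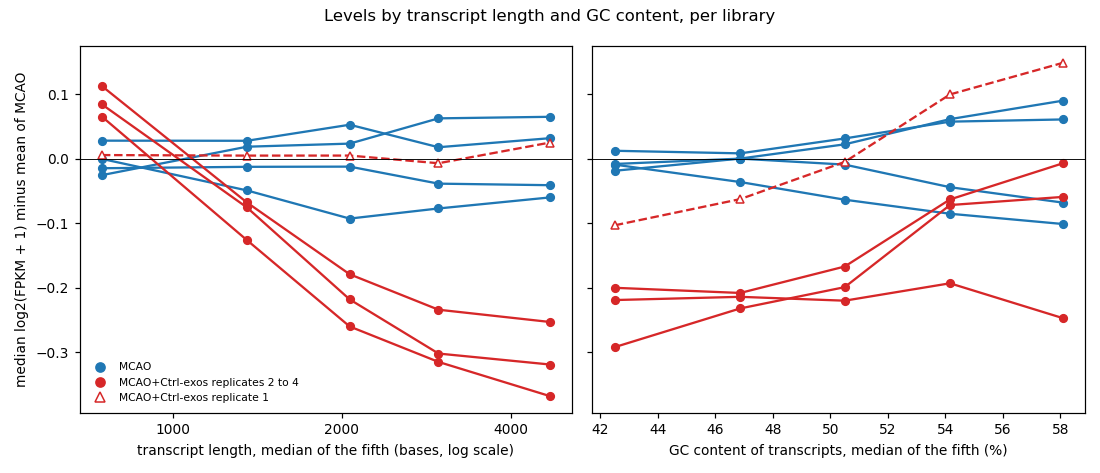
Median log2(FPKM + 1) minus the MCAO mean of the genes in 5 equal bins of transcript length (left, log axis, bases) and of GC content (right, percent), 1 line per library. MCAO+Ctrl-exos replicates 2 to 4 (red points) go from 0.0656 to 0.113 in the bin of the shortest transcripts to -0.368 to -0.253 in that of the longest, while replicate 1 (open triangles) stays near 0 in length. In GC content replicate 1 goes from -0.103 in the lowest bin to 0.149 in the highest.

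Lists of chaperones and the proteasome had medians nearer to that of all genes. Of 14 tested prefoldin and CCT genes Pfdn5 rose and the median was 0.16. Among 38 proteasome genes the median was 0.20, and scaling the totals brought it to -0.01. Psmb10, a catalytic subunit of the immunoproteasome, measured 86.6, 62.6, 76.0 and 73.3 FPKM in MCAO and 95.0, 187.6, 184 and 282 FPKM in MCAO+Ctrl-exos (1.22 ± 0.27, adjusted p = 0.114). Hspa5, the main chaperone of the endoplasmic reticulum, lay at 342 to 492 FPKM in MCAO and 535 to 777 FPKM in MCAO+Ctrl-exos without overlap (0.63 ± 0.19, adjusted p = 0.211), in a list of 20 genes of the unfolded protein response with a median of 0.10. Manf, a stress-induced factor of the same compartment, overlapped through treated replicate 1, at 162 to 329 FPKM in MCAO and 266, 704, 667 and 398 FPKM in MCAO+Ctrl-exos (1.04 ± 0.29, adjusted p = 0.18). Elob, an adaptor of ubiquitin ligases, measured 644, 648, 464 and 609 FPKM in MCAO and 722, 1533, 1515 and 1595 FPKM in MCAO+Ctrl-exos (1.12 ± 0.24, adjusted p = 0.109). Without replicate 1 Psmb10 (limma adjusted p = 0.00937), Elob (adjusted p = 0.00386) and Manf (adjusted p = 0.0224) passed, as did Psmb1 (adjusted p = 0.0196), all higher. Psmb1 and Psmb10 were the 2 of 38 proteasome genes to do so (5.26%, against 0.821% of all genes).

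The title of the study concerns ferroptosis, and no gene on the lists for it passed the threshold in this comparison. Of 24 tested genes that protect from it, 8 were above 0 and the median was -0.26, and of 18 that promote it 5 were above 0 and the median was -0.21, beside -0.14 for all genes. At an unadjusted p below 0.05 the first list held 2 genes higher and 3 lower and the second held 0. Gpx4, the peroxidase that reduces lipid peroxides, measured 679.9, 745, 559 and 807 FPKM in MCAO and 823, 1121, 1038 and 1601 FPKM in MCAO+Ctrl-exos. The groups did not overlap, although the highest untreated and the lowest treated value were 807 and 823 FPKM, and the gene did not pass (0.69 ± 0.22, adjusted p = 0.26). Acsl4, which loads membranes with oxidizable fatty acids, measured 14.7, 9.89, 14.9 and 15.3 FPKM in MCAO and 11.8, 9.17, 7.07 and 18.6 FPKM in MCAO+Ctrl-exos (-0.28 ± 0.35, adjusted p = 0.802). Nfs1, the sulfur donor of iron-sulfur clusters, was lower without overlap, at 12.7 to 21.1 and 4.55 to 9.32 FPKM (-1.08 ± 0.35, adjusted p = 0.272).

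Iron storage and heme genes were likewise not past the threshold. Ftl1, the ferritin light chain, measured 13443, 15068, 12839 and 12919 FPKM in MCAO and 17433, 22595, 23861 and 23821 FPKM in MCAO+Ctrl-exos, without overlap (0.68 ± 0.25, adjusted p = 0.329). Fth1, the heavy chain, lay at 12890 to 16996 FPKM and 15239 to 21045 FPKM and overlapped, and its log2 fold change of 0.31 ± 0.17 turned to -0.23 under quantile normalization (adjusted p = 0.52 as reported). Hmox1, which breaks down heme, was scattered in the treated group at 1246, 236, 330.4 and 614 FPKM, around 466 to 1347 FPKM in MCAO (-0.66 ± 0.59, adjusted p = 0.713). Ferritin genes have near-identical copies in the genome, so their fragments may be divided. Gsr, the reductase that regenerates glutathione, lay at 88.8 to 146 FPKM in MCAO and at 107, 53.1, 54.2 and 72.1 FPKM in MCAO+Ctrl-exos, where replicate 1 alone reached the untreated range (-0.75 ± 0.34, adjusted p = 0.436). Lcn2, which binds the iron carriers of bacteria and is abundant in neutrophils, was scattered in both groups, at 21.5 to 86.4 and 0.25 to 35.3 FPKM (-2.22 ± 0.77, adjusted p = 0.304).

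Inflammatory genes gave no call in limma. Of 27 tested pro-inflammatory mediators 12 were above 0, 1 was lower at an unadjusted p below 0.05, none was without overlap between the groups, and the median was -0.09. Il1b, the gene of interleukin-1β, measured 325, 449.7, 520 and 883 FPKM in MCAO and 465, 655, 600.3 and 364 FPKM in MCAO+Ctrl-exos (0.00 ± 0.52, adjusted p = 1.0 in limma), so the treated values lay inside the untreated range. Tnf lay at 19.5 to 78.03 FPKM in MCAO and 17.3 to 37.5 FPKM in MCAO+Ctrl-exos (-0.36 ± 0.45, adjusted p = 0.8), and without MCAO replicate 1, which held the highest value, the difference was 0.08. Ccl2, the chemokine that draws monocytes, lay at 789 to 1265 and 594 to 1092 FPKM (-0.37 ± 0.25, adjusted p = 0.601). Ccl3, another chemokine gene, lay at 114 to 254 and 109 to 127 FPKM (-0.73 ± 0.27, adjusted p = 0.332), and Arg1, the gene of arginase 1, at 728 to 1544 and 536 to 986 FPKM (-0.77 ± 0.34, adjusted p = 0.417).

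Immediate early genes, which cells switch on within minutes of a stimulus, lay low as a list in treated replicates 2 to 4 only. As list medians against the MCAO mean, the MCAO libraries lay at -0.08 to 0.07 and treated replicate 1 at -0.07, among them. Replicates 2 to 4 lay at -0.33, -0.32 and -0.48. Of 23 tested, 3 were above 0, 6 were lower without overlap (26.1%, against 3.99% of all genes) and the median was -0.29. None passed the threshold in limma, while at an unadjusted p below 0.05 there were 7 lower and 1 higher. Egr1, a transcription factor, measured 59.0, 65.7, 82.1 and 96.7 FPKM in MCAO and 45.1, 37.8, 29.4 and 37.5 FPKM in MCAO+Ctrl-exos (-0.99 ± 0.22, adjusted p = 0.112). Myc, a growth regulator, measured 15.2, 13.5, 10.3 and 15.4 FPKM in MCAO and 10.03, 1.19, 4.35 and 2.01 FPKM in MCAO+Ctrl-exos (-1.70 ± 0.42, adjusted p = 0.16). In Egr1 all 4 treated libraries were low, while in Myc treated replicate 1 lay just below the lowest untreated value. Without replicate 1 both passed, at -1.08 ± 0.23 (adjusted p = 0.0329) for Egr1 and -2.14 ± 0.38 (adjusted p = 0.0162) for Myc.

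Isg15, a ubiquitin-like protein induced by type I interferon, measured 42.3, 28.6, 31.0 and 18.5 FPKM in MCAO and 17.95, 6.21, 6.77 and 0.95 FPKM in MCAO+Ctrl-exos (-2.15 ± 0.60, adjusted p = 0.18). The groups met at 18.52 and 17.95 FPKM, and without treated replicate 1 the gene passed at -2.65 ± 0.59 (adjusted p = 0.0437). The other interferon genes did not follow, since 10 of 27 were above 0 and the median was -0.13. Of 24 genes of proliferation 4 were above 0, with a median of -0.56, but the libraries of a group were far apart. As list medians against the MCAO mean, MCAO replicates 1 to 4 lay at 0.98, -0.10, 0.08 and -0.94 and the treated ones at -0.26, -0.29, -1.43 and -0.47, ranges that overlap. Rrm1, a subunit of ribonucleotide reductase, was at 4.37 to 13.3 FPKM in MCAO and 2.51 to 4.76 FPKM in MCAO+Ctrl-exos (-1.18 ± 0.39, adjusted p = 0.277), and Mcm7, a subunit of the replicative helicase, at 3.43 to 33.4 and 0.52 to 7.13 FPKM (-1.94 ± 0.62, adjusted p = 0.259). None of the 24 was without overlap.

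Of 27 genes of lipid export and storage none passed the threshold in limma, 4 were higher and 1 lower at an unadjusted p below 0.05, and 15 were above 0. The median was 0.12, brought to -0.09 by scaling the totals and to -0.01 by removing length and GC trends. Apoc1, an apolipoprotein gene, measured 113.3, 69.4, 67.5 and 113 FPKM in MCAO and 194, 257, 189 and 198 FPKM in MCAO+Ctrl-exos (1.23 ± 0.26, adjusted p = 0.101). Apoc2, a cofactor of lipoprotein lipase encoded in the same cluster as Apoc1 and Apoe, measured 1129, 1606, 1140.3 and 918 FPKM in MCAO and 1622, 3449, 4009 and 2948 FPKM in MCAO+Ctrl-exos (1.28 ± 0.31, adjusted p = 0.153). Both were without overlap and both passed when treated replicate 1 was left out, with adjusted p of 0.0444 and 0.0196. Apoe itself, which the recipient mice carry, lay at 9252 to 13237 FPKM in MCAO and 12930 to 20499 FPKM in MCAO+Ctrl-exos and overlapped (0.51 ± 0.25, adjusted p = 0.478). Hexa, a lysosomal hexosaminidase subunit that degrades gangliosides, measured 291.6, 281, 248.8 and 382 FPKM in MCAO and 465, 685, 706 and 699 FPKM in MCAO+Ctrl-exos (1.08 ± 0.24, adjusted p = 0.109), and passed without replicate 1 (adjusted p = 0.0196).

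Genes of microglia and phagocytes gave no call in limma with all libraries. Of 25 homeostatic markers 11 were above 0, with a median of -0.13, and the summed level of the list was 3446 to 5613 FPKM in MCAO and 4454 to 6642 FPKM in MCAO+Ctrl-exos. P2ry12, a purinergic receptor of surveying microglia, was lower without overlap, at 42.3, 48.9, 51.9 and 47.8 FPKM in MCAO and 17.2, 17.1, 39.8 and 40.5 FPKM in MCAO+Ctrl-exos (-0.83 ± 0.31, adjusted p = 0.338). Tmem119 ran the other way and overlapped, at 11.1 to 51.0 and 24.1 to 56.6 FPKM (0.62 ± 0.43, adjusted p = 0.616). Cx3cr1, the fractalkine receptor, lay at 25.0 to 73.1 and 29.1 to 75.0 FPKM (0.02 ± 0.33, adjusted p = 0.993), and its sign changed with the processing. Of 28 genes of disease-associated phagocytes 19 were above 0 (median 0.25). This median was 0.04 under quantile normalization and 0.06 with equal totals, beside -0.03 and -0.31 for all genes. It was 0.15 without treated replicate 1 and 0.38 without MCAO replicate 1. Cd63, a tetraspanin of endosomes and exosomes, lay at 1955 to 2497 FPKM in MCAO and 2793 to 4876 FPKM in MCAO+Ctrl-exos without overlap (0.62 ± 0.21, adjusted p = 0.304). Spp1, the gene of osteopontin, lay at 3813 to 14387 and 6319 to 9128 FPKM (0.03 ± 0.37, adjusted p = 0.987), and its sign changed with the processing as well. Trem2, a lipid-sensing receptor of phagocytes, lay at 317 to 499 and 453 to 672 FPKM (0.33 ± 0.22, adjusted p = 0.613), and Lgals3, the gene of galectin-3, at 1293 to 1723 and 1686 to 2406 FPKM (0.45 ± 0.24, adjusted p = 0.501). Without treated replicate 1, 1 of the 25 homeostatic markers (4.0%) passed in limma, Cst3 (adjusted p = 0.0162). So did 2 of the 28 phagocyte genes (7.14%), Tyrobp (adjusted p = 0.0162) and Cd52 (adjusted p = 0.038). Each was higher, and 0.821% of all genes passed in that fit. Tyrobp and Cd52 were named after their values were seen.

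Markers of other cells varied between libraries within a group. The summed level of 10 neutrophil markers was 1723 to 9985 FPKM in MCAO and 1834 to 3657 FPKM in MCAO+Ctrl-exos. S100a8, a calprotectin subunit of neutrophils and monocytes, measured 1264, 1691, 4107 and 7116 FPKM in MCAO and 2397, 1647, 1261 and 1425 FPKM in MCAO+Ctrl-exos, so the scatter lay in the untreated group (-0.78 ± 0.43, adjusted p = 0.523). Ly6c2, a marker of inflammatory monocytes, measured 248, 189.6, 195 and 61.1 FPKM in MCAO and 89.0, 446, 498 and 481 FPKM in MCAO+Ctrl-exos, so that here too treated replicate 1 lay with the untreated libraries (1.02 ± 0.49, adjusted p = 0.459). Hbb-bs, a beta globin gene of red cells, lay at 0 to 0.31 FPKM in MCAO and 0.85 to 15.7 FPKM in MCAO+Ctrl-exos (2.26 ± 0.85, adjusted p = 0.338), and the 6 erythroid markers summed to 1.05 to 73.4 and 5.79 to 71.5 FPKM. Markers of neurons summed to at most 11.0 FPKM, of astrocytes to at most 15.1 FPKM and of T and NK cells to at most 3.85 FPKM in any of the 8 libraries, and Rbfox3 and Aldh1l1, defining genes of neurons and astrocytes, were below 1 FPKM in all of them. The astrocyte sums did not overlap, at 10.6 to 15.1 FPKM in MCAO and 1.40 to 6.67 FPKM in MCAO+Ctrl-exos. The part of cell mixture in the results above was not tested.

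Other abundant genes without overlap that missed the threshold are given by their ranges. On the higher side were Tmem176b, a membrane channel protein of myeloid cells, at 16.3 to 52.0 FPKM in MCAO and 77.9 to 154 FPKM in MCAO+Ctrl-exos (1.86 ± 0.40, adjusted p = 0.109), and Tmem256, at 602 to 896 and 1028 to 1890.1 FPKM (1.06 ± 0.23, adjusted p = 0.109). Hras, a signalling GTPase, lay at 3.18 to 18.8 and 26.4 to 59.2 FPKM (1.85 ± 0.47, adjusted p = 0.167). Pnkd lay at 20.6 to 31.5 and 64.5 to 119 FPKM (1.80 ± 0.49, adjusted p = 0.18). On the lower side were Rsl24d1, a ribosome assembly factor, at 33.3 to 61.8 and 9.04 to 23.5 FPKM (-1.36 ± 0.31, adjusted p = 0.114), and Chka, a choline kinase of phospholipid synthesis, at 31.7 to 40.6 and 9.27 to 21.2 FPKM (-1.27 ± 0.32, adjusted p = 0.167). Mtap, which salvages methionine, lay at 11.9 to 19.5 and 2.82 to 8.01 FPKM (-1.44 ± 0.35, adjusted p = 0.155), and Gatm, an enzyme of creatine synthesis, at 94.0 to 114 and 34.9 to 64.1 FPKM (-0.94 ± 0.26, adjusted p = 0.18). Ndel1, a regulator of the motor dynein, lay at 72.0 to 134 and 37.2 to 49.0 FPKM (-1.09 ± 0.28, adjusted p = 0.167). Without treated replicate 1, Tmem256 (adjusted p = 0.0162) and Chka (adjusted p = 0.0432) passed. Rsl24d1 assembles the same large subunit whose proteins lay higher, and its own values ran the other way.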

How the data were processed

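RNA of 16 libraries in 4 groups of 4 had been sequenced, and this text uses the table of 13982 genes that the authors deposited. All 16 single-library files equal that table. The unit of the deposited values was inferred to be FPKM, since totals differ between libraries and RSEM is named; TPM of a subset of genes is possible. The submitters' processing notes name HISAT2, Bowtie2, RSEM 1.3.1 and the build GRCm39.p6, with no roles or settings. The files hold no counts, so depth is unknown. Mitochondrially encoded genes were not analysed here.

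Groups came from the titles. Values were taken as log2(FPKM + 1), 10846 genes that reached 1 FPKM in 4 or more libraries were tested and 3136 were not, and 4 group means were fitted over all 16 libraries with limma 3.58.1 in R 4.3.3 (eBayes with trend and robust, two-sided, Benjamini-Hochberg, threshold 0.05). The procedure was tested on simulated data. There it recovered 14 of 100 genes set to a log2 change of 1 and 69 of 100 set to a change of 2, with 4 false calls. The simulated noise was normal, without a floor and independent between genes and libraries. No simulated library stood apart from its group as treated replicate 1 did, so recovery and false calls in the real data may differ. A gene that did not pass may therefore still have changed. Named genes were those past the threshold, the 10 with the smallest p per direction among abundant genes without overlap, the 5 with the largest change per direction, up to 2 per list and a set of genes on ferroptosis and microglia; a part of them is printed. Counts and medians describe lists, with no test. Members, lists and the rule were chosen with earlier results of these data known.

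Alternatives were quantile normalization, equal totals, all genes tested, only genes reaching 5 FPKM, 0.1 added in place of 1, no trend, only the 8 libraries, quality weights, a replicate block, removal of length and GC trends (GENCODE M21 transcripts, 10712 tested genes matched by symbol), and leaving out each library. Promoters came from RefSeq on GRCm38.p6, with windows for 7 of the 8 genes.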

Additional observations from a re-analysis of the deposited data

Results flagged for a closer look

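In each group of 4 libraries, a library was singled out where its gap to the nearest other value, divided by the range of the group, exceeded Dixon's critical value, a limit that chance passes in about 1 in 20 groups. Of 184 groups (92 genes, each in MCAO and in MCAO+Ctrl-exos), 20 did so. MCAO+Ctrl-exos replicate 1 was low for Elob (gap share 0.908; 722 against 1515 to 1595 FPKM), Hexa (0.913; 465 against 685 to 706 FPKM), Cst3, the gene of cystatin C (0.858; 2179 against 4060 to 4370 FPKM), and Ly6c2 (0.873; 89.0 against 446 to 498 FPKM). MCAO replicate 4 was high for the ribosomal genes Rplp1 (0.899), Rps19 (0.847) and Rps18 (0.853), for Mrpl14 of the mitochondrial ribosome (0.914), and for the neutrophil receptor gene Cxcr2 (0.945, 37.7 against 11.0 to 12.5 FPKM). Rplp1, Rps18 and Mrpl14 did not pass with all libraries (limma adjusted p = 0.167, 0.18 and 0.153). Without MCAO+Ctrl-exos replicate 1 they passed, each higher (limma adjusted p = 0.044, 0.0432 and 0.0183). MCAO replicate 3 was high for Rpgrip1 (0.856) and low for Pfdn5 (0.894). MCAO replicate 2 was high for Mrps16 (0.888) and low for Acsl4 (0.883). MCAO replicate 1 was high for Chka (0.924), Tnf (0.885) and Mcm7 (0.851). MCAO+Ctrl-exos replicate 2 was high for Apoc1 (0.868) and Mcm7 (0.939) and low for Dlat, a subunit of pyruvate dehydrogenase (0.842). MCAO+Ctrl-exos replicate 3 was high for Ppbp, a platelet chemokine gene (0.893; 2.25 against 0 to 0.24 FPKM).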

How the results depend on the processing

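The count of 8 genes past the threshold (5 higher, 3 lower) was 5 (2, 3) with equal totals, 3 (1, 2) with no filter, 2 (0 higher, 2 lower; 1154 genes at an unadjusted p below 0.05) in limma without trend, 3 (1, 2) with only the 8 libraries and 59 (48, 11) with quality weights, and 3 genes were higher with length and GC trends removed; the cause was not tested. Leaving out 1 library gave 2 to 89 genes, 0 to 71 of them higher and 2 to 18 lower, with the top of each range without MCAO+Ctrl-exos replicate 1 and 2 genes without replicate 4. With a replicate block the count was 5 (3 higher), 4 of them among the 8; residuals of equal numbers correlated at -0.00897 to 0.0376, so the numbers were not taken as a pairing. Medians of complex I (0.34 to 0.69) and of the large (0.11 to 0.54) and small (0.13 to 0.58) cytosolic ribosomal lists kept their direction, lowest with quantile normalization. Signs turned for 5 named genes: Fth1 (-0.23, quantile), Il1b (0.11 weights, 0.01 length and GC, -0.22 to 0.26 leaving out single libraries), Tnf (-0.58 to 0.08 leaving out single libraries, 0.08 without MCAO replicate 1), Cx3cr1 (-0.19 equal totals, -0.28 to 0.25 leaving out single libraries) and Spp1 (-0.31 quantile, -0.18 equal totals, -0.26 to 0.38 leaving out single libraries). Depth is unknown, so values near 0 carry no limit.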

Other observations

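Genes of cholesterol synthesis had a median log2 fold change of -0.04 over 22 tested members, with none past the threshold. Of these members, 2 were higher without overlap (9.09%, against 1.99% of all genes). Mvd, which makes isopentenyl diphosphate, measured 0.31, 2.17, 0.68 and 0.39 FPKM in MCAO and 3.34, 12.3, 24.7 and 10.6 FPKM in MCAO+Ctrl-exos (2.70 ± 0.61, limma adjusted p = 0.114), and passed without MCAO+Ctrl-exos replicate 1 (adjusted p = 0.0196). Ebp, a sterol isomerase of the same pathway, lay at 19.96 to 38.7 and 42.4 to 74.1 FPKM (0.97 ± 0.35, adjusted p = 0.324). Of 18 genes of glycolysis 5 were above 0, with a median of -0.19, and Pfkp, a phosphofructokinase, lay at 15.7 to 30.2 and 6.90 to 20.2 FPKM (-0.95 ± 0.35, adjusted p = 0.331). Of 13 complement genes the median was -0.07, while C3, the central component, measured 6.64, 8.29, 15.3 and 0.8 FPKM in MCAO and 5.9, 27.8, 28.3 and 34.2 FPKM in MCAO+Ctrl-exos, with replicate 1 again among the untreated libraries (1.65 ± 0.56, adjusted p = 0.297). C1qa, a chain of the recognition molecule C1q, lay at 710 to 1699 and 1624 to 2019 FPKM (0.83 ± 0.31, adjusted p = 0.337). Pros1, a plasma protein that bridges dying cells to phagocyte receptors, was lower without overlap, at 12.7 to 25.7 and 6.48 to 10.8 FPKM (-1.05 ± 0.33, adjusted p = 0.244).

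Receptors for the uptake of particles and vesicles, 21 of them tested, had a median of -0.13, and 21 genes of exosome tetraspanins and vesicle sorting a median of -0.19, with no gene of either list past the threshold. Alb, the gene of serum albumin, was listed at 0 FPKM in all 8 libraries. Cyba, a subunit of the phagocyte NADPH oxidase, lay at 1710 to 1876 FPKM in MCAO and 2203 to 3168 FPKM in MCAO+Ctrl-exos without overlap (0.64 ± 0.28, adjusted p = 0.426). Dab2, an endocytic adaptor, was lower without overlap, at 153 to 231 and 96.3 to 127 FPKM (-0.71 ± 0.30, adjusted p = 0.384).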
